A study of Mus musculus with 2 samples.

Results

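Cells of large T cell clones were compared with cells whose T cell receptor was seen once among the cells of the table, within each of 12 mice. A clone was taken as all cells of 1 mouse with the same clonotype, the authors' code for a receptor, and its size as the number of those cells. Cells of clones of 10 or more cells are called expanded here, and cells of clones of 1 cell singletons. Of 18860 cells, 16175 carried a clonotype, and 5365 of these were expanded and 4067 were singletons. The other 6743 belonged to clones of 2 to 9 cells and stood on neither side, and 2685 cells carried no clonotype.

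All cells were CD4 T cells from the colons of Rag-/- mice, which make no T or B cells of their own and had received donor T cells in the transfer model of colitis. The 6 KO mice had received CD4+ T cells deficient in BCL-6, the repressor on which follicular helper T cells depend, and the 6 WT mice naive CD4+ CD45RBhigh CD25- T cells. Cells positive for TCRb and CD4 were sorted, marked with 1 hashtag antibody per mouse and sequenced as 1 pooled library by a 5′ method. The labels give neither the deleted region of Bcl6, nor the promoter of any Cre, nor how many donors were used, and 20 of the 6367 clonotypes occurred in more than 1 mouse. The labels name the CD45RBhigh CD25- gate for the WT donor cells only, so genotype and donor gate cannot be told apart. A 5′ library need not show a deletion further downstream, so Bcl6 counts do not check the labels. Bcl6 itself had 78.5 ± 26.0 UMIs per 1e6 UMIs of the side (CPM; SD, n = 12 mice) in expanded cells and 63.9 ± 10.0 in singletons, and the difference did not pass the test (adjusted p = 0.187).

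A T cell receptor joins an alpha and a beta chain, and each chain is assembled by random joining of gene segments, so cells with the same junction usually descend from 1 cell. In the transfer model, T cells that recognise gut bacteria divide in a host without lymphocytes and become effector cells of the Th1 and Th17 kinds. Cells that keep the transcription factor TCF-1 (Tcf7) and the lymph node homing receptor CCR7 are known as a less differentiated reserve, and cells that make granzymes, chemokines and cytokines as effectors.

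The beta chain junctions below are shown as 1 part of the receptors of the clones. Clones were counted by clonotype and not by beta chain. Of the 232 expanded clones, 62 shared a beta chain with another expanded clone of their mouse, and 11 had an alpha chain alone. A printed junction may therefore also occur in cells outside the clone named beside it. Each junction runs from the codon of the conserved cysteine to that of the conserved phenylalanine, which are in capitals. Of the beta chain genes, Trbv1 starts at 40891229 and Trbc2 ends at 41548352 on mouse chromosome 6 of GRCm38. The largest clone of each mouse had 1 beta chain, and held 30 to 140 cells in KO mice and 29 to 235 cells in WT mice.
KO mouse 1, 39 cells: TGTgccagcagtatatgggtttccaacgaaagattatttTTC
KO mouse 2, 30 cells: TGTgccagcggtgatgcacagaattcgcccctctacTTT
KO mouse 3, 74 cells: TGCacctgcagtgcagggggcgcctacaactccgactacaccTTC
KO mouse 4, 98 cells: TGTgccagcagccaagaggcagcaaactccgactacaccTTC
KO mouse 5, 121 cells: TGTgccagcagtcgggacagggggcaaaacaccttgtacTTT
KO mouse 6, 140 cells: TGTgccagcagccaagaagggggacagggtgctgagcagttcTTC
WT mouse 1, 235 cells: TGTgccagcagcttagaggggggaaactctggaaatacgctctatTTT
WT mouse 2, 45 cells: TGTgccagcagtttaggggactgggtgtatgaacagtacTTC
WT mouse 3, 77 cells: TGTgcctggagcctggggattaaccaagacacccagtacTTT
WT mouse 4, 57 cells: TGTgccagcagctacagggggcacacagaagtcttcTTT
WT mouse 5, 139 cells: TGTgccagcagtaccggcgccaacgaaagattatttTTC
WT mouse 6, 29 cells: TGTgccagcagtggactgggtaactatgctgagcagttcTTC
The clones below carry results given further on, the first as the only expanded clone made up of regulatory cells and the second as the largest one with at least 80% of its cells in the cytotoxic cluster.
KO mouse 2, 19 cells, all regulatory: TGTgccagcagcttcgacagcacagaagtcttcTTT
WT mouse 5, 95 cells, 84 cytotoxic: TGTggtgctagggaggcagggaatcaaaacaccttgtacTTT

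Expanded cells summed to between 489306 and 2589968 UMIs per mouse, and singletons to between 779802 and 1291962. The median number of UMIs per cell was 2836 ± 362 on the expanded side and 2836 ± 208 on the singleton side (SD, n = 12 mice; exact sign-flip permutation test, two-sided, p = 1.000), and the genes per cell, the mitochondrial share and the doublet score did not pass the test either. Both receptor chains were recorded for 86.7% of expanded cells and 64.2% of singletons, and 85 singletons (2.09%) carried a chain of an expanded clone of their own mouse. The clone size that the authors deposited, counted over more cells than the table holds, was above 1 for 813 of the 4067 singletons. With deposited sizes on both sides, an alternative chosen after seeing the data, 757 genes passed over all cells, of which 637 were among the 784 genes called with the sizes used here and had the same direction. When clones of a mouse that share a beta chain were joined, also chosen after seeing the data, there were 6798 expanded cells and 3092 singletons, and 676 genes passed over all cells, against 784. Of the T cell markers, Cd3d, Cd3e, Cd3g, Cd4 and Lck together had 4196 CPM (lowest to highest mouse 3752 to 4759) in expanded cells and 3933 (3600 to 4496) in singletons, and the sum was higher in expanded cells in 10 of 12 mice (exact sign-flip permutation test, adjusted p = 0.0308 over the marker lists).

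There were 232 expanded clones, 93 in KO mice and 139 in WT mice, with a median size of 16 cells and 235 cells in the largest. The expanded share of the clonotyped cells was 19.2, 14.7, 25.3, 43.4, 32.0 and 31.0% in KO mice 1 to 6, against 53.8, 43.8, 38.6, 36.0, 37.9 and 21.0% in WT mice 1 to 6. The ranges overlapped, and the means of 27.6 ± 10.2% in KO mice and 38.5 ± 10.7% in WT mice did not pass the test (SD, n = 6 each; exact permutation test over all assignments of mice to genotypes, two-sided, adjusted p = 0.127 over 4 measures). The number of expanded clones averaged 15.5 ± 3.62 in KO mice and 23.2 ± 5.15 in WT mice (exact permutation test, adjusted p = 0.0346). Singletons made up 29.1 ± 4.48% of the clonotyped cells in KO mice and 21.2 ± 4.16% in WT mice (exact permutation test, adjusted p = 0.0346), so KO mice had fewer large clones and a larger share of singletons. Both calls were lost when 1 mouse, KO mouse 1, 2 or 3 or WT mouse 1 or 3, was left out, with differences of -7.97 to -6.57 clones and 6.92 to 7.79 percentage points and adjusted p-values of 0.0519 to 0.0563.

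The authors' annotation places each cell in 1 of 7 clusters. They are named here by the authors' labels and their leading genes as recirculating (S1pr1, the receptor for exit from tissue into lymph), cytotoxic (Ccl5, Gzmk and Eomes), Th17 (Il17a), cycling (Mki67) and regulatory (Foxp3), and 2 clusters with only a general CD4 label are called unnamed 1 and unnamed 3. These leading genes followed the names, with Foxp3 at 494 CPM in regulatory cells against at most 1.51 elsewhere, Il17a at 1078 in Th17 cells, Mki67 at 877 in cycling cells and Gzmk at 277 in cytotoxic cells. S1pr1 was at 122 CPM in recirculating cells and at most 76.8 elsewhere, in regulatory cells. Other genes of recirculation did not peak in the recirculating cluster. Klf2 was at 487 CPM there, 534 in cytotoxic and 985 in regulatory cells. Ccr7 was at 92.7 there and 629 in regulatory cells, and Tcf7 at 150 there and 165 in unnamed 3. The cluster names were given by the authors on the same expression values, so a gene that defines a cluster moves with that cluster's share.

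Expanded cells were less often recirculating cells and more often cytotoxic and cycling cells than the singletons of the same mice. Recirculating cells made up 18.3 ± 8.74% of the expanded cells and 28.7 ± 11.6% of the singletons (SD, n = 12 mice), with a lower share on the expanded side in 12 of 12 mice (exact sign-flip permutation test, two-sided, p = 4.88e-04, the smallest it can give; adjusted p = 0.00171 over 7 clusters). Across mice the 2 sides overlapped, from 5.79 to 39.6% in expanded cells and from 6.36 to 41.2% in singletons, and the shift appeared within each mouse. Cytotoxic cells made up 25.3 ± 19% of expanded cells and 15.1 ± 8.86% of singletons, with a higher share on the expanded side in 10 of 12 mice (exact permutation test, adjusted p = 0.0114). The exceptions were KO mouse 2, with 2.11% of expanded cells and 3.41% of singletons, and KO mouse 6, with 5.13 and 9.71%.

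Cycling cells made up 8.24 ± 3.19% of expanded cells and 4.67 ± 1.40% of singletons, with a higher share in 12 of 12 mice (exact permutation test, adjusted p = 0.00171). Unnamed 1 cells made up 18.3 ± 13.1% and 22.2 ± 14.2%, lower on the expanded side in 11 of 12 mice (exact permutation test, adjusted p = 0.0179), a call that was lost when no more than 10 cells per clone were kept (difference -1.57 percentage points, adjusted p = 0.249). Th17 cells averaged 14.0 ± 11.6% of expanded cells and 9.54 ± 6.54% of singletons, and ranged from 0.870 to 41.1% of the expanded cells of a mouse (exact permutation test, adjusted p = 0.209). Unnamed 3 cells averaged 14.9 ± 15.3% and 16.9 ± 10.3% (exact permutation test, adjusted p = 0.416).

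**Figure D1:**
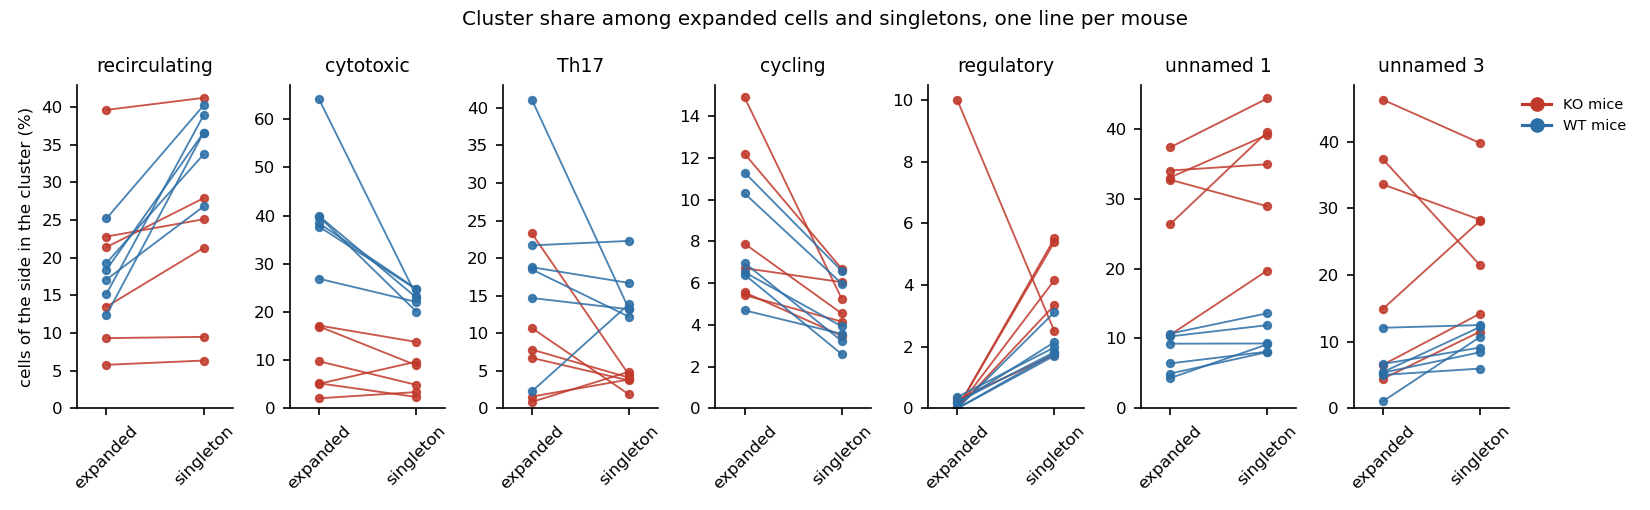
Share of each side's cells in each of the 7 clusters (%), with 1 line per mouse from its expanded cells to its singletons, for KO and WT mice. The recirculating lines are lower at the expanded end in 12 of 12 mice and the cycling lines higher in 12 of 12.

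Regulatory cells, which hold back other T cells, averaged 0.920 ± 2.86% of expanded cells and 2.94 ± 1.40% of singletons. In 11 of 12 mice they were between 0 and 0.371% of the expanded cells and between 1.71 and 5.51% of the singletons, so the sides did not overlap in these mice. The cluster was small, and only 6 of 12 mice had 20 or more clonotyped regulatory cells, with 71 at most. A clone counts as expanded from 10 cells, which limits how many clones of so small a cluster can qualify. KO mouse 2 went the other way, with 10.0% of its expanded cells and 2.50% of its singletons. Its excess was the 1 clone of 19 cells whose junction is printed above, which held 19 of the 25 expanded regulatory cells of all mice. With this mouse included the difference did not pass the test (exact permutation test, adjusted p = 0.0902), and without it the difference was -2.88 percentage points (exact permutation test, adjusted p = 0.00228).

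Counted from the clusters, the expanded share was 25.7% of the recirculating cells against 35.4% of all other clonotyped cells of the same mice, a difference of -9.76 percentage points (exact permutation test, adjusted p = 0.00342). It was 40.7% of the cycling cells against 32.4% of the others (exact permutation test, adjusted p = 0.00684), and 29.7% of the unnamed 1 cells against 33.8% (exact permutation test, adjusted p = 0.0251). For cytotoxic cells it was 38.5% against 30.5% and did not pass the test on this count (exact permutation test, adjusted p = 0.0538). Clonotypes were recorded for 78.9% of regulatory cells and 79.4% of unnamed 3 cells, and for 85.1 to 90.5% of the cells of the other clusters.

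The cluster makeup shifted in steps with clone size in WT mice. Recirculating cells made up 35.5% of WT cells in clones of 1 cell, 30.0% in clones of 2 to 4, 23.7% in clones of 5 to 9, 18.9% in clones of 10 to 19 and 18.2% in clones of 20 or more. Cytotoxic cells made up 23.0, 27.0, 34.2, 40.0 and 38.8% of WT cells in the same order of size. In KO mice the recirculating share was 21.9, 22.7, 22.0, 19.7 and 18.7%, and the cytotoxic share 7.18, 8.30, 10.2, 10.1 and 9.36%. These shares are a description over bins that share the 2 sides tested above.

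**Figure D2:**
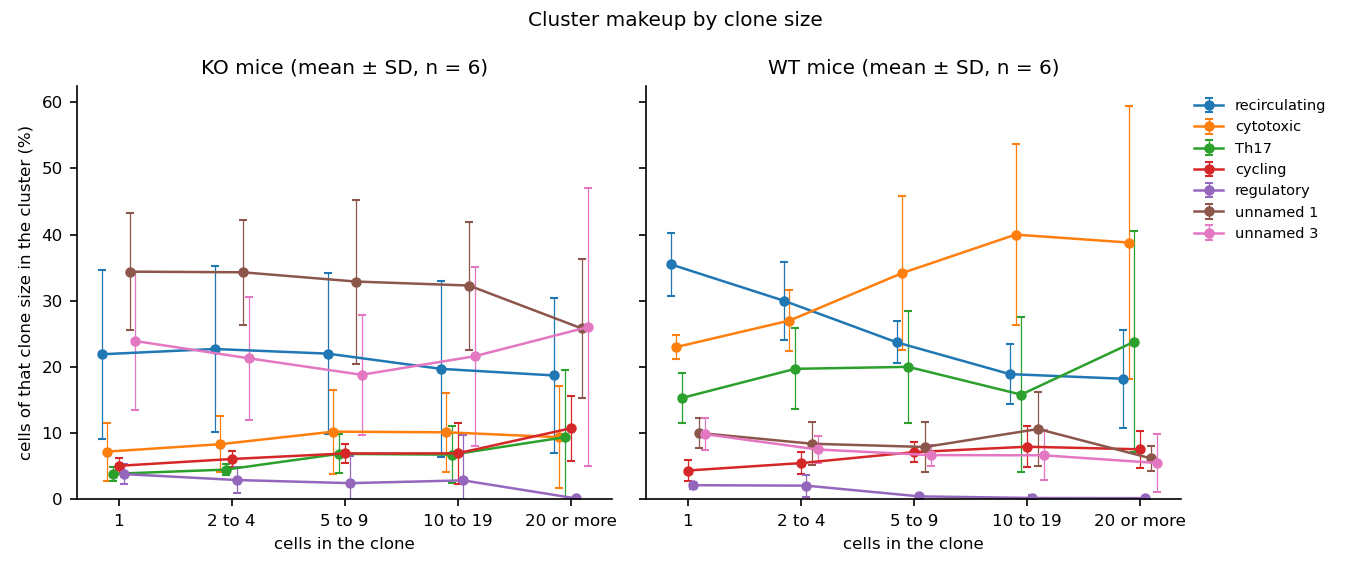
Share of cells in each cluster (%, mean and SD over 6 mice) by the number of cells in the clone, for KO mice (left) and WT mice (right); the lower end of an error bar is not drawn below 0. In WT mice the recirculating share is 35.5% in clones of 1 cell and 18.2% in clones of 20 or more, and the cytotoxic share 23.0 and 38.8%.

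The clones just inside and just outside the size limit are given as a description. The 518 cells of the 49 clones of 10 to 11 cells were 21.6% recirculating, 31.7% cytotoxic, 13.7% Th17, 6.37% cycling and 18.3% unnamed 1. The 648 cells of the 77 clones of 8 to 9 cells were 20.7% recirculating, 24.4% cytotoxic, 16.4% Th17, 6.79% cycling and 17.9% unnamed 1.

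The shift away from recirculating cells differed between genotypes. The recirculating share of expanded cells minus that of singletons was -0.175, -0.574, -2.32, -6.44, -7.79 and -1.58 percentage points in KO mice 1 to 6, and -14.4, -18.2, -15.0, -23.8, -24.3 and -9.67 in WT mice 1 to 6. The genotypes did not overlap, and the means of -3.15 ± 3.19 in KO mice and -17.6 ± 5.70 in WT mice differed by 14.4 points (SD, n = 6 each; exact permutation test over all assignments of mice to genotypes, two-sided, p = 0.00216, the smallest it can give; adjusted p = 0.0152 over 7 clusters). The difference passed under every alternative run on it, with a log2 odds ratio of 1.07 when shares were set on the odds scale. Recirculating cells were 21.9% of the singletons in KO mice and 35.5% in WT mice, a difference that was not tested here.

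The cytotoxic share moved by 2.85, -1.30, 8.0, 3.44, 4.89 and -4.58 points in KO mice, and by 16.9, 19.7, 13.6, 4.80, 40.7 and 13.0 points in WT mice. The genotypes overlapped through WT mouse 4, and the means of 2.22 ± 4.50 in KO mice and 18.1 ± 12.1 in WT mice differed by -15.9 points (exact permutation test, adjusted p = 0.0227). On the odds scale the difference was -0.862 log2 units and did not pass (exact permutation test, adjusted p = 0.439), and at a limit of 20 cells or with at most 10 cells per clone it was -13.6 and -13.5 points with adjusted p-values of 0.246 and 0.144.

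Most expanded clones were spread over several clusters. Of the 232 expanded clones, 8 had all cells in 1 cluster, 25 in 2, 41 in 3 and 158 in 4 or more, and a clone had a median of 53.8% of its cells in its leading cluster. A cycling cell was found in 160 clones and a recirculating cell in 185, of which 132 also held a cytotoxic cell and 109 a Th17 cell. Cytotoxic and Th17 cells occurred together in 72 clones. In these counts 1 cell was enough to place a clone in a cluster, so they rise with clone size and with how common a cluster is. No expected counts were worked out, and the counts were not tested. Of the 1031 expanded recirculating cells, 567 belonged to clones in which another cluster led.

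The leading clusters of the clones differed between genotypes in number. In KO mice, unnamed 1 led 36 clones, recirculating 21, unnamed 3 20, cytotoxic 9, Th17 4, cycling 2 and regulatory 1. In WT mice, cytotoxic led 68 clones, Th17 35, recirculating 24, unnamed 1 6, unnamed 3 5 and cycling 1. Clones with at least 80% of their cells in 1 cluster numbered 34, of which 27 were WT clones in the cytotoxic cluster and 4 WT clones in the Th17 cluster. Among them was the WT mouse 5 clone of 95 cells printed above, with 88.4% of its cells cytotoxic. The largest clones of all were more mixed, with 37.9% of the 235-cell clone of WT mouse 1 in the cytotoxic cluster and 40.0% of the 140-cell clone of KO mouse 6 in the recirculating cluster. These clone counts were not tested. The singletons of the genotypes already differed in the same directions. Unnamed 1 made up 34.4% of them in KO mice and 10.0% in WT mice, cytotoxic cells 7.18 and 23.0%, and Th17 cells 3.82 and 15.3%. The counts of leading clusters therefore do not show by themselves where clones expanded. Where clusters tied, the lead went to the first in the order recirculating, cytotoxic, Th17, cycling, regulatory, unnamed 1, unnamed 3.

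Over all cells, summed UMIs were compared gene by gene with the mouse as a block (edgeR's quasi-likelihood test with Benjamini-Hochberg adjustment at 0.05, 7464 genes tested). Of these genes, 372 were higher in expanded cells, which is 4.98%, and 412 were lower, which is 5.52%. Sums over cells cannot tell apart fewer cells that express a gene from less RNA of it per cell. Of the tested members of 3 lists, 10 of 12 genes of naive and memory state and recirculation fell, 9 of 15 cytotoxic genes rose and 16 of 17 cell cycle genes rose. The lists below were drawn up with earlier results of these data known, so their counts describe them and are no independent evidence.

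Ccr7, which guides T cells into lymph nodes, showed the largest fall. It had 3.95 to 85.8 CPM in expanded cells (median 24.0) and 51.8 to 191 CPM in singletons (median 102). The sides overlapped only through KO mouse 2, with 85.8 CPM in expanded cells and 51.8 in singletons, the mouse with the regulatory clone, and regulatory cells had 629 CPM of Ccr7 against at most 92.7 in the other clusters. Ccr7 was lower in expanded cells in 11 of 12 mice, by -2.42 ± 0.27 on the log2 scale (SE; edgeR, adjusted p = 1.0e-05).

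Of 12 tested genes of naive and memory state and recirculation, 10 fell and 0 rose, and the median was -0.59 on the log2 scale, against 0.00 over all genes. Tcf7, which encodes TCF-1, had 53.5 to 133 CPM in expanded cells (median 91.4) and 102 to 185 CPM in singletons (median 138). The ranges overlapped and the level was lower in expanded cells in 11 of 12 mice, by a log2 fold change of -0.66 ± 0.10 (edgeR, adjusted p = 1.2e-04). Slamf6, a surface receptor that often accompanies TCF-1, changed by -1.41 ± 0.17, S1pr1 by -0.83 ± 0.14, Satb1, a chromatin organiser, by -0.53 ± 0.07, and Il7r, the receptor for the survival cytokine IL-7, by -0.51 ± 0.05, each with an adjusted p of at most 3.6e-04. S1pr1 also names the recirculating cluster, whose share was lower among expanded cells, and it was called lower within none of the clusters fitted below. Lef1, a relative of Tcf7, was at the edge of the call (-0.30 ± 0.09, adjusted p = 0.0357), and lost it under 17 of 32 alternatives.

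Socs3, an inhibitor of cytokine signalling, separated the sides completely. It had 40.6 to 123 CPM in expanded cells (median 91.1) and 149 to 240 CPM in singletons (median 176), with no overlap between any of the 12 mice. The log2 fold change was -1.13 ± 0.10 (edgeR, adjusted p = 1.2e-06). Klf3, a transcriptional repressor, had 34.7 to 166 CPM in expanded cells (median 61.3) and 121 to 216 CPM in singletons (median 144), and was lower in 12 of 12 mice (-1.12 ± 0.15, adjusted p = 3.9e-05). The other large falls were Izumo1r (folate receptor 4), Sidt1, Ecm1 and Tbc1d4, a regulator of glucose transport, with log2 fold changes of -1.16 to -0.95. Izumo1r was no longer called when the clusters were weighted alike on both sides (-0.20, adjusted p = 0.701).

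Zeb2, a transcription factor that drives terminal effector differentiation in CD8 T cells, was the rise with the smallest p. It had 25.8 to 98.9 CPM in expanded cells (median 55.5) and 7.54 to 32.1 CPM in singletons (median 19.6). The ranges overlapped slightly across mice, and within mice it was higher in expanded cells in 12 of 12 (1.60 ± 0.13, edgeR, adjusted p = 4.8e-07). Cdkn2a, whose products hold back the cell cycle, had 21.2 to 59.8 CPM in expanded cells (median 31.9) and 7.54 to 32.5 CPM in singletons (median 15.7), again higher in 12 of 12 mice (1.10 ± 0.16, adjusted p = 8.3e-05). Ccl3, a chemokine for myeloid cells, had 2.04 to 91.4 CPM (median 38.8) and 1.70 to 36.3 CPM (median 7.70) on the same sides, and was higher in 12 of 12 mice (1.61 ± 0.20, adjusted p = 2.0e-05), although in KO mouse 2 this rested on 1 UMI in expanded cells and 2 UMIs in singletons.

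**Figure D3:**
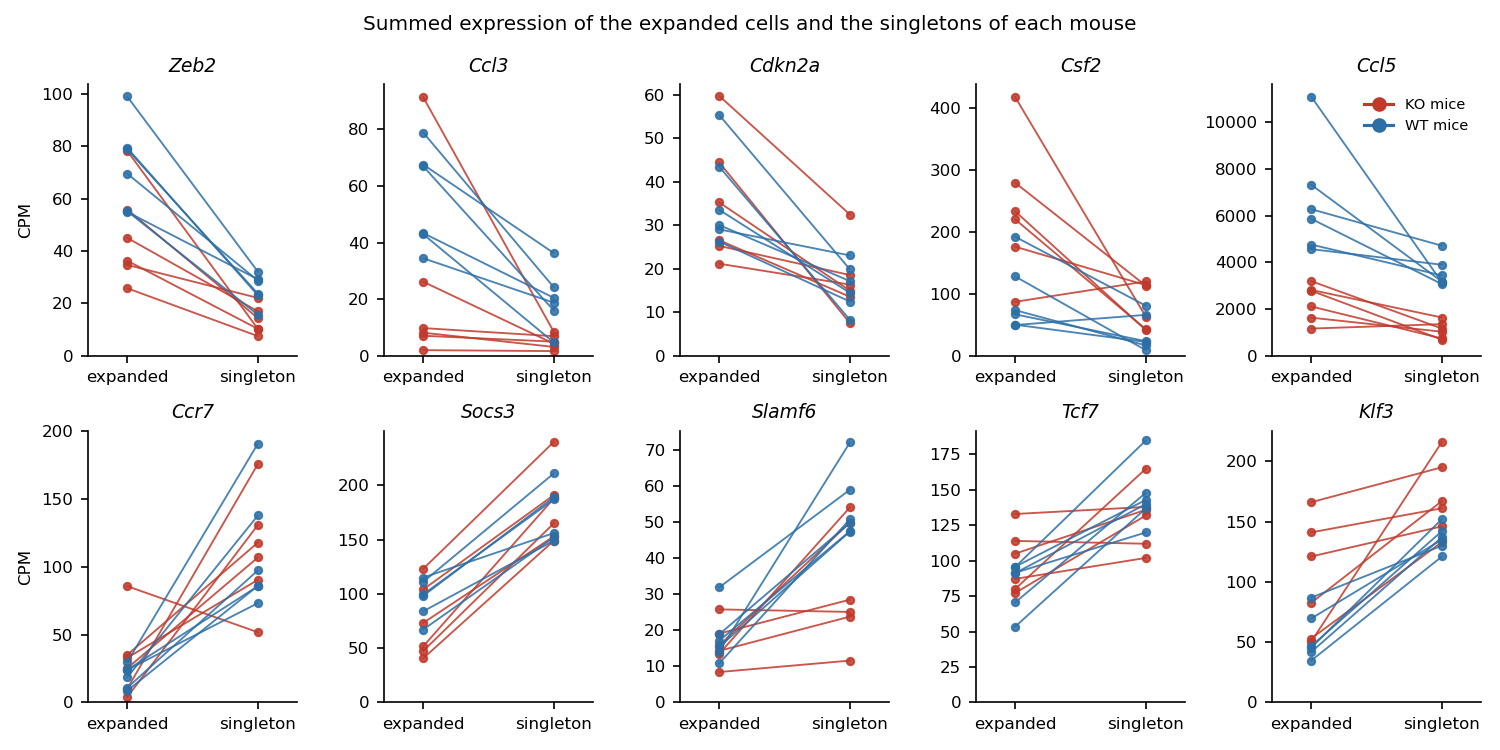
CPM (linear axis) of genes named in the text, with 1 line per mouse from its expanded cells to its singletons, for KO and WT mice. Socs3 is at most 123 on the expanded side and at least 149 on the singleton side of each mouse, and Zeb2 is higher on the expanded side of 12 of 12 mice.

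Of 15 tested cytotoxic genes, 9 rose and 0 fell (median 0.36). Ccl5, a chemokine stored by effector T cells, averaged 4465 ± 2841 CPM in expanded cells and 2340 ± 1378 in singletons (0.91 ± 0.14, higher in 11 of 12 mice, adjusted p = 2.3e-04). Gzma, a granzyme, averaged 389 ± 316 and 195 ± 138 CPM (0.87 ± 0.16, 9 of 12 mice, adjusted p = 6.7e-04), and Nkg7, a protein of cytotoxic granules, 1436 ± 422 and 926 ± 148 CPM (0.57 ± 0.07, 11 of 12 mice, adjusted p = 2.2e-05). Gzmb was close to the limit (0.36 ± 0.11, adjusted p = 0.0473) and lost the call under 17 of 32 alternatives. Gzmk, the granzyme that marks the cytotoxic cluster, and Eomes, the factor that goes with it, did not pass (-0.14 ± 0.17 and -0.59 ± 0.35, adjusted p = 0.704 and 0.349), although the cytotoxic cluster itself was larger among expanded cells.

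Of 10 tested effector cytokines, 4 rose and 0 fell. Csf2, which encodes GM-CSF, a driver of colitis in this model, had 49.8 to 417 CPM in expanded cells (median 152) and 9.16 to 120 CPM in singletons (median 52.8). The sides overlapped, and Csf2 was higher in expanded cells in 10 of 12 mice (1.40 ± 0.25, adjusted p = 6.4e-04). Ifng, the Th1 cytokine, averaged 914 ± 302 and 632 ± 271 CPM (0.55 ± 0.10, 11 of 12 mice, adjusted p = 0.00126), and Tbx21, which encodes the Th1 factor T-bet, 79.8 ± 19.1 and 58.0 ± 6.20 CPM (0.42 ± 0.10, 11 of 12 mice, adjusted p = 0.00525). Il17a had 3.69 to 597 CPM in expanded cells (median 201) and 9.62 to 259 in singletons (median 71.0) and missed the limit (1.12 ± 0.37, adjusted p = 0.0561). Il22 averaged 379 ± 534 CPM in expanded cells and 378 ± 381 in singletons (adjusted p = 0.783), and Il13 passed (1.38 ± 0.40, higher in 8 of 12 mice, adjusted p = 0.0302) but lost its call under 8 of 27 alternatives, among them the loss of KO mouse 1, 2 or 3 (lowest without KO mouse 2, 0.83, adjusted p = 0.106).

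The Th1 list was divided, with Il2rb, Ifng and Tbx21 of 12 tested genes higher and the receptors Cxcr3, Ccr2, Il18r1 and Il12rb2 lower. The Th17 list was divided too, with Rora and Ltb4r1 of 11 higher and Ahr and Maf lower, the pair last named in 12 of 12 mice (-0.62 ± 0.08 and -0.56 ± 0.08, adjusted p = 3.9e-05 and 8.3e-05). Of 11 genes of tissue residence, Itga1 and Cxcr6 rose and 0 fell. Of 7 genes of regulatory T cells, Tnfrsf18, Tnfrsf4 and Ctla4 fell, while Foxp3 had too few UMIs to be tested (mean 4.29 CPM in expanded cells and 14.3 in singletons). Of 7 genes of follicular helper cells, Sh2d1a and Icos fell. Among 8 inhibitory receptors Cd160 and Havcr2 rose and Ctla4 and Tigit fell, though Tigit lost its call under 20 of 32 alternatives and Havcr2 under 15 of 28, while Pdcd1, which encodes PD-1, showed 23.4 ± 9.60 and 22.4 ± 6.20 CPM (0.01 ± 0.16, adjusted p = 0.995).

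Of 17 tested cell cycle genes, 16 rose and 0 fell (median 0.48). Stmn1, which acts on microtubules in dividing cells, had 68.0 to 214 CPM in expanded cells (median 132) and 43.5 to 137 CPM in singletons (median 71.8), and was higher in 12 of 12 mice (0.84 ± 0.08, adjusted p = 1.2e-06). Mki67 averaged 137 ± 49.7 and 84.1 ± 20.4 CPM (0.65 ± 0.10, 11 of 12 mice, adjusted p = 2.0e-04). The cycling cluster was larger among expanded cells, and when cycling cells were left out Mki67 changed by 0.17 (adjusted p = 0.573). With the clusters weighted alike on both sides, Mki67 changed by 0.05 and Stmn1 by 0.15, and neither passed (adjusted p = 0.885 and 0.379), and Birc5 turned to -0.17 (adjusted p = 0.436).

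Ribosomal protein genes fell together but by little. Of 80 tested, 69 fell and 0 rose (median log2 fold change -0.13), and Rps20 averaged 3212 ± 289 CPM in expanded cells and 3594 ± 329 in singletons. Of 14 glycolysis genes, Gapdh, Eno1, Tpi1 and Slc2a1 rose by log2 fold changes of 0.15 to 0.33 and 0 fell. The survival and death list was divided, with 3 of 12 genes higher, Fasl and Bax among them, and Bcl2, Bcl2l11 and Mcl1 lower. Among genes induced by the T cell receptor, Nr4a2, Nr4a3 and Dusp2 of 13 rose and Jun fell, though Jun lost its call under 20 of 32 alternatives and Nr4a3 under 9 of 32. The interferon list had Ifi27l2a and Ifi203 of 8 lower, and 0 of 10 heat shock genes passed over all cells.

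Levels of Ccr7, Zeb2, Cdkn2a, Socs3 and Csf2 changed in steps over the clone sizes between the 2 sides. These genes were among the largest rises or falls between the sides, so the difference between their end bins was set in advance. The values are a description over bins that share the 2 sides tested above. Ccr7 averaged 112 CPM in clones of 1 cell, 82.7 in clones of 2 to 4, 44.5 in clones of 5 to 9, 31.9 in clones of 10 to 19 and 20.9 in clones of 20 or more. Zeb2 averaged 19.5, 35.4, 39.1, 55.3 and 61.1 CPM in the same order, and Cdkn2a 16.6, 20.8, 24.1, 33.0 and 37.9 CPM. Socs3 averaged 177, 141, 113, 92.8 and 79.7 CPM. Csf2 averaged 59.4, 78.7, 103, 111 and 197 CPM, and Ccl5 2340, 2823, 3760, 4287 and 4403 CPM, so the largest step of Csf2 came at the largest clones and Ccl5 was level above 10 cells. The spread of Csf2 was wide, with an SD of 198 CPM in clones of 20 or more. Mki67 averaged 84.1, 124, 118, 126 and 145 CPM, with its largest step between clones of 1 cell and of 2 to 4 cells. Il13 did not move in steps, at 9.07, 28.7, 13.2, 28.9 and 24.4 CPM.

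**Figure D4:**
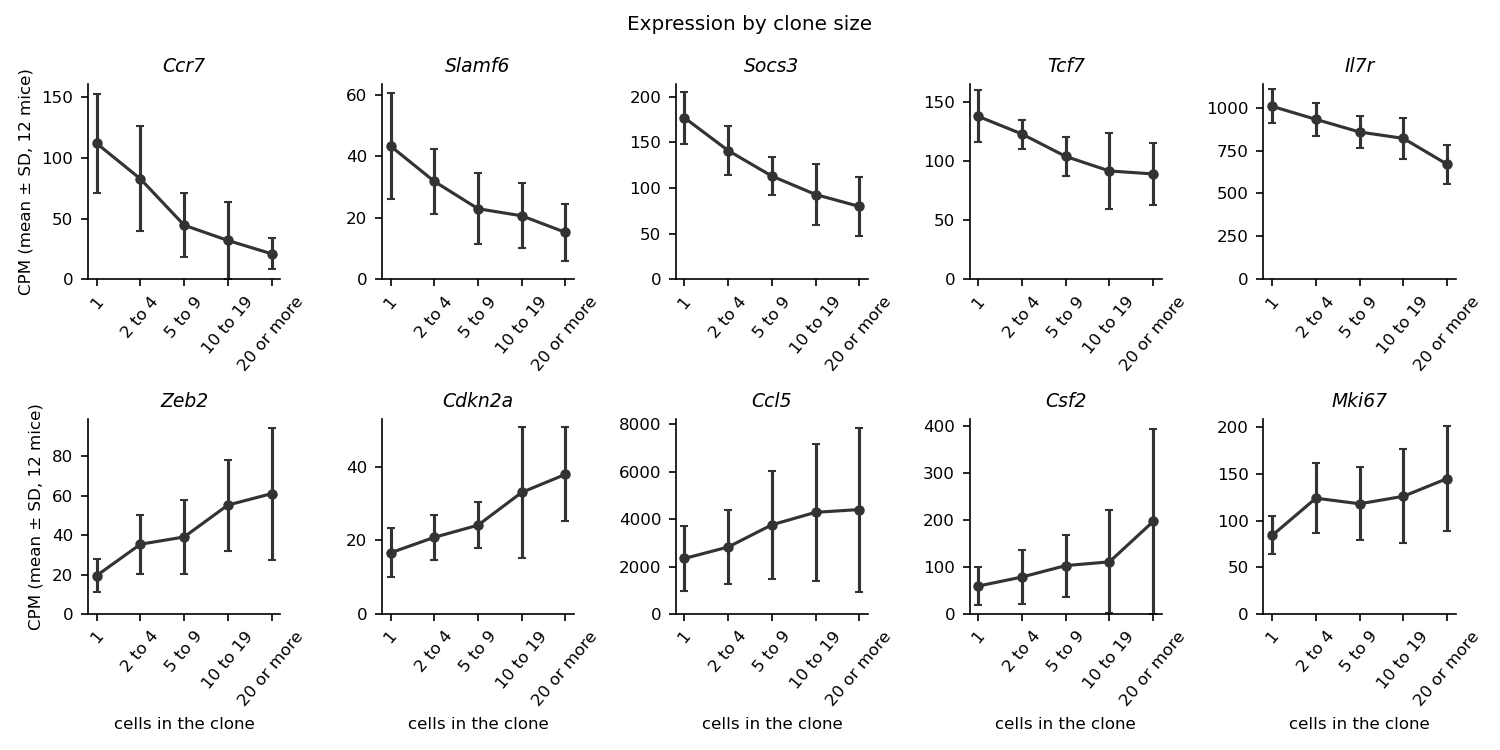
Mean CPM over 12 mice with its SD (not drawn below 0), by the number of cells in the clone, for genes named in the text. Ccr7 is at 112 in clones of 1 cell and 20.9 in clones of 20 or more, and Zeb2 at 19.5 and 61.1.

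The same contrast was made inside each cluster with at least 20 cells per side in at least 4 mice. This held for recirculating (5 KO and 6 WT mice), cytotoxic (4 KO and 6 WT), unnamed 1 and unnamed 3 (6 KO and 4 WT each) and Th17 cells (5 WT mice). Cycling cells reached 20 cells on both sides in 1 mouse and regulatory cells in 0, and neither was fitted.

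Within the recirculating cluster, 72 of 4115 genes rose (1.75%) and 116 fell (2.82%). Ccl5 had 1214 to 4497 CPM in expanded recirculating cells (median 2446) and 517 to 2184 CPM in recirculating singletons (median 898), and was higher in 11 of 11 mice (1.22 ± 0.12, adjusted p = 4.9e-08). Ifng averaged 547 ± 239 and 267 ± 81.8 CPM (1.07 ± 0.12, 10 of 11 mice, adjusted p = 4.3e-07), Cd74, the invariant chain of antigen presentation, 110 ± 75.0 and 50.8 ± 21.7 CPM (1.16 ± 0.18, 10 of 11, adjusted p = 8.4e-05), and Gzmb 918 ± 339 and 583 ± 270 CPM (0.66 ± 0.10, 11 of 11, adjusted p = 1.3e-04). Of 8 cytotoxic genes tested there, 5 rose and 0 fell.

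Ccr7 had 2.43 to 104 CPM in expanded recirculating cells (median 25.9) and 72.3 to 280 CPM in recirculating singletons (median 182). It was lower in 11 of 11 mice (-2.31 ± 0.26, adjusted p = 4.3e-07), so its fall was also measured inside the cluster that is named for recirculation. Tcf7 averaged 115 ± 20.8 and 176 ± 49.8 CPM (-0.70 ± 0.12, lower in 9 of 11 mice, adjusted p = 3.0e-04), and Slamf6 36.6 ± 24.8 and 69.3 ± 21.4 CPM (-0.99 ± 0.19, lower in 10 of 11, adjusted p = 0.0016). Of 10 genes of naive and memory state and recirculation, 6 fell and 0 rose.

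Within the cytotoxic cluster, 32 of 2102 genes rose (1.52%) and 66 fell (3.14%). Of 12 cytotoxic genes tested there, Ccl3 and Nkg7 rose and Gzmk and Eomes, which mark the cluster, fell (median 0.22). Nkg7 lost its call under 8 of 17 alternatives. Gzmk had 55.3 to 492 CPM in expanded cytotoxic cells (median 243) and 121 to 859 CPM in cytotoxic singletons (median 462), lower in 10 of 10 mice (-1.0 ± 0.13, adjusted p = 3.3e-05). Eomes averaged 70.6 ± 79.2 and 193 ± 132 CPM (-1.38 ± 0.29, lower in 10 of 10, adjusted p = 0.00374), and Klf2, a factor that keeps T cells in circulation, 399 ± 215 and 785 ± 298 CPM (-1.01 ± 0.19, lower in 8 of 10, adjusted p = 0.00203). Esm1 showed the largest fall (-1.77 ± 0.21, lower in 10 of 10), but lies inside Gzmk on the other strand of chromosome 13 (GRCm38; Esm1 at 113209659 to 113218098, Gzmk at 113171608 to 113225908), so reads may have been shared if strand was not used in counting.

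Ccl3 rose in cytotoxic cells (185 ± 149 CPM in expanded cells and 70.3 ± 47.1 in singletons, 1.07 ± 0.28, adjusted p = 0.0249), and so did Cd160, a receptor of activated cytotoxic cells (252 ± 99.6 and 142 ± 49.8 CPM, 0.82 ± 0.16, adjusted p = 0.00252), and Rbpj, the effector of Notch signalling (138 ± 41.8 and 75.6 ± 32.5 CPM, 0.86 ± 0.17, adjusted p = 0.00286). Ccl3 lost its call under 7 of 16 alternatives, among them the loss of KO mouse 4 or WT mouse 4 or 6. Ccl5, abundant in this cluster on both sides, did not pass (0.08 ± 0.13, adjusted p = 0.831). Of 9 heat shock genes, 9 fell (median -0.52), among them Hsp90aa1 with 916 ± 221 CPM in expanded cells and 1231 ± 293 in singletons (-0.46 ± 0.08, adjusted p = 9.0e-04). Hspa1a and Hspa1b are near-identical copies on chromosome 17 whose reads may have been split.

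Within unnamed 1, 73 of 3259 genes rose (2.24%) and 86 fell (2.64%). Ccl5 had 1645 to 6049 CPM in expanded cells (median 2451) and 472 to 1591 CPM in singletons (median 886), with no overlap between the 10 mice (1.50 ± 0.12, adjusted p = 4.0e-09). Nr4a2, induced by the T cell receptor, averaged 150 ± 93.2 and 53.7 ± 38.7 CPM (1.26 ± 0.21, 10 of 10 mice, adjusted p = 2.3e-04), Tnfrsf9, the activation receptor 4-1BB, 224 ± 48.6 and 121 ± 30.6 CPM (0.79 ± 0.12, 10 of 10, adjusted p = 1.7e-04), and S100a4 237 ± 100 and 104 ± 31.9 CPM (1.11 ± 0.16, 10 of 10, adjusted p = 7.1e-05). Il12rb2, a receptor chain for IL-12, averaged 495 ± 128 and 669 ± 160 CPM and fell (-0.46 ± 0.09, adjusted p = 0.00167), as did Ctla4 and Satb1, and the largest falls were Tspan3, Socs3 and Fam241a (-1.27 to -1.13).

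In unnamed 3 and Th17 cells few genes passed. Within unnamed 3, 5 of 1707 genes rose (0.293%) and 17 fell (0.996%). Gzmb averaged 500 ± 312 CPM in expanded cells and 240 ± 158 in singletons and was higher in 10 of 10 mice (0.94 ± 0.14, edgeR, adjusted p = 2.6e-04). Il4, the Th2 cytokine, averaged 125 ± 57.5 and 73.9 ± 91.8 CPM (1.45 ± 0.34, higher in 8 of 10, edgeR, adjusted p = 0.0224). Its singleton values rested on 5, 6, 6, 1, 2 and 5 UMIs in KO mice 1 to 6, and on 17, 5, 8 and 14 in WT mice 1, 2, 5 and 6. Jun, a partner in the AP-1 factor, averaged 211 ± 89.0 and 321 ± 96.4 CPM (-0.73 ± 0.15, lower in 9 of 10, adjusted p = 0.00918), and Bcl2l11, which encodes the death factor BIM, 118 ± 48.0 and 185 ± 56.4 CPM (-0.66 ± 0.15, lower in 9 of 10, adjusted p = 0.0224).

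Within Th17 cells of WT mice, 9 of 3371 genes rose (0.267%) and 3 fell (0.0890%). Csf2 had 66.9 to 1032 CPM in expanded Th17 cells (median 194) and 15.2 to 483 CPM in Th17 singletons (median 23.6). The singleton values rested on 4, 3, 58, 2 and 5 UMIs in WT mice 1, 2, 3, 4 and 6. Across mice the sides overlapped, and Csf2 was higher in 5 of 5 mice (1.78 ± 0.26, edgeR across 3371 genes, adjusted p = 0.00723). Ifng averaged 719 ± 208 and 366 ± 215 CPM (1.00 ± 0.17, edgeR, adjusted p = 0.0242), Nkg7 569 ± 318 and 248 ± 71.1 CPM (1.03 ± 0.18, edgeR, adjusted p = 0.0242) and Tgfb1 452 ± 97.1 and 216 ± 72.6 CPM (1.00 ± 0.18, edgeR, adjusted p = 0.0242). The 3 falls were Zfp36l2 and Zfp36l1, which bind and destabilise messenger RNAs, and Vps37b. With at most 10 cells per clone, 0 genes passed in Th17 cells and 0 in unnamed 3 (edgeR; 227 and 96 at an unadjusted p under 0.05), and leaving out WT mouse 3 left 1 call in Th17 cells, while leaving out WT mouse 1 gave 37.

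Some changes recurred across clusters, which are not independent of each other. They come from the same mice, and 158 of the 232 expanded clones held cells in 4 or more clusters. Socs3 fell in recirculating, cytotoxic, unnamed 1 and unnamed 3 cells by log2 fold changes of -1.25 to -1.0, and was lower in 5 of 5 mice in Th17 cells without passing (-0.70 ± 0.15, edgeR, adjusted p = 0.0658). It was 1 of 5 genes called lower in those 4 clusters, with Il7r, Jun, Rpl8 and Rps20. Il7r lost its call under 8 of 17 alternatives in unnamed 3, and Jun under 6 of 17 in cytotoxic cells. No gene was called higher in all 4, and 8 were called higher in recirculating, cytotoxic and unnamed 1 cells, namely Anxa2, Ermn, Lgals1, Litaf, Nkg7, Rora, Vim and Ybx3. Of these, Litaf rose in Th17 cells as well, with log2 fold changes of 0.76 to 1.27 over the 4 clusters. Zeb2 was tested in 2 clusters only, where it rose in unnamed 1 (1.04 ± 0.25, adjusted p = 0.0137) and was higher in 5 of 5 mice in Th17 cells without passing (1.15 ± 0.26, edgeR, adjusted p = 0.0777). Ribosomal protein genes fell in 38 of 80 cases in recirculating, 17 of 78 in cytotoxic, 15 of 79 in unnamed 1 and 10 of 78 in unnamed 3 cells, and in 0 of 79 in Th17 cells.

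**Figure D5:**
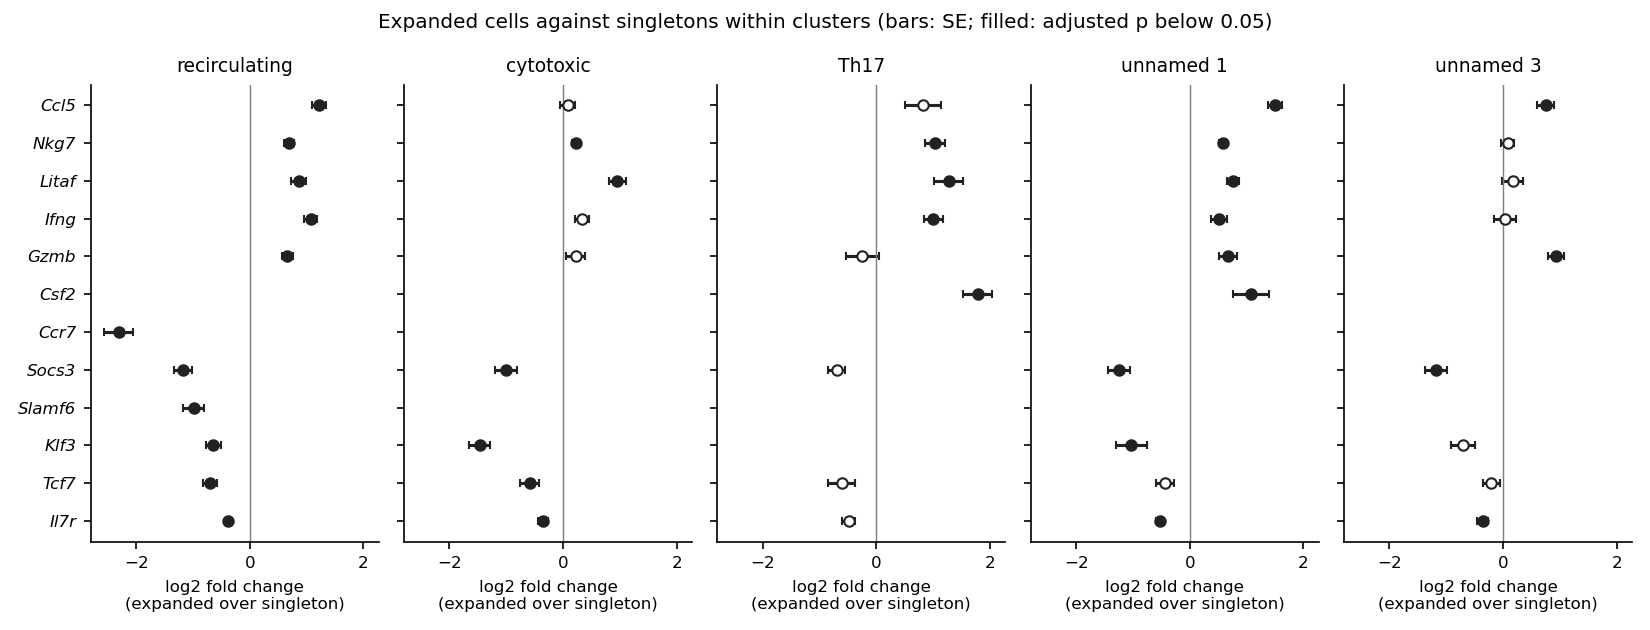
Log2 fold change (expanded over singleton) of genes named in the text, within each cluster in which they were tested, with the standard error; filled points passed at an adjusted p of 0.05. Socs3 lies between -1.25 and -0.70 in all 5 clusters, and Ccl5 lies at 1.50 in unnamed 1 and 0.08 in cytotoxic cells.

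The gene contrast itself was then compared between KO and WT mice by the interaction of side and genotype. The interaction passed for 1 of 8094 genes (0.0124%). Ccr7, Zeb2 and Csf2, taken as examples of the changes over all cells, changed in the same direction in each genotype tested alone. Ccr7 changed by -2.19 ± 0.44 in KO mice and -2.61 ± 0.17 in WT mice (interaction adjusted p = 0.953), Zeb2 by 1.77 ± 0.22 and 1.47 ± 0.13 (0.909), and Csf2 by 1.45 ± 0.30 and 1.31 ± 0.28 (0.993). Not every gene passed in both genotypes. Tcf7 changed by -0.45 ± 0.13 in KO mice without passing (edgeR, adjusted p = 0.0754). In WT mice it changed by -0.85 ± 0.10 and passed (edgeR, adjusted p = 1.68e-04, interaction adjusted p = 0.738). In data simulated with known changes this interaction test found 12% of changes of 0.5 and 68% of changes of 1 on the log2 scale, so smaller differences between genotypes would mostly be missed. The simulation gave every gene the same spread beyond counting noise and held no clones, so still more may be missed in the measured data.

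Markers of other cells were low on both sides, and some moved with them. Cd8a had 31.4 CPM in expanded cells and 9.41 in singletons on average (1.58 ± 0.30, adjusted p = 0.00123), while its partner Cd8b1 had 1.88 and 3.54 CPM. Cd8a was highest in the cytotoxic cluster, at 73.0 CPM, where Cd4 was at 472 CPM. The 3 measured B and plasma cell markers summed to 15.4 CPM (1.89 to 38.8) in expanded cells and 37.3 CPM (15.5 to 74.7) in singletons (exact sign-flip permutation test over 12 mice, adjusted p = 0.0308). The 1 of them tested as a gene, Ighm, the heavy chain of IgM, was lower in expanded cells in 10 of 12 mice (-1.41 ± 0.36, edgeR, adjusted p = 0.0113). The NK cell sum was 4.48 (0 to 9.13) and 3.81 (0 to 9.16) CPM, the gamma delta T cell sum 68.4 (20.4 to 109) and 52.2 (29.0 to 85.8), the myeloid sum 7.26 (1.26 to 12.3) and 7.57 (3.35 to 13.2), the epithelial sum 21.5 (13.0 to 39.3) and 20.7 (9.62 to 27.5) and the mast cell gene Kit 6.53 and 6.26. Pecam1, the 1 measured stromal and endothelial gene, had 35.9 and 48.6 CPM and was lower in expanded cells in 9 of 12 mice (-0.46 ± 0.14, edgeR, adjusted p = 0.0419). The part of such cells in the results above was not tested.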

How the data were processed

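Gene expression was measured as UMI counts per gene and cell. The authors deposited 1 table of counts for 11971 genes and 18860 cells, and an annotation with each cell's mouse, cluster, clonotype, receptor junctions and quality measures. The tools named are Seurat 3.1.5 and Cell Ranger 3.1.0 and the build GRCm38 (mm10), per the submitters' processing notes. The sources used here do not give how cells were filtered, how clonotypes were set or whether strand was counted. The deposited mitochondrial percent, the doublet score and the fraction of cells held by a clone are the authors' values. The deposited clone fractions were counted over 28105 cells, more than the table holds, so clone size was counted again within the 16175 clonotyped cells. No doublet caller was run.

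Counts were summed per mouse and side and tested in edgeR 4.0.16 (R 4.3.3) with TMM scaling, filterByExpr and the quasi-likelihood F test. The mouse is the block, since both sides come from 1 animal. Fold changes are expanded over singleton with the standard error taken from the F value. CPM divides by the side's own total. Shares were tested by exact sign-flip permutation over 12 mice (smallest p 4.88e-04) or exact permutation over genotypes (smallest p 0.00216). P-values measure the spread between mice of 1 pooled library. In simulated counts the all-cell test recovered 86% of changes of 0.5 and 100% of changes of 1 on the log2 scale. These counts had the same spread beyond counting noise for every gene and no clones, so the rates need not hold for the measured data. Genes were named by a rule: a panel of 31, the 8 largest rises and falls over all cells (same direction in at least 10 mice, average log2 CPM of at least 4), the 3 largest per cluster, and up to 4 of each list; a few of these are not reported here. Genes of the shared sets, and Il18r1, Il12rb2, Bax and Mcl1 in the counts, were named after their values were seen. The clone rule, gene lists and tests were chosen with earlier results of these data known. Alternatives were DESeq2 1.42.0, other filters, size limits and weightings, and each mouse left out; cells with both chains, unshared chains, deposited clone sizes, clones joined by beta chain and the alternatives of the genotype shift were chosen after seeing the data. Positions are from the GRCm38 annotation.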

Additional observations from a re-analysis of the deposited data

Results flagged for a closer look

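In KO mice the regulatory share of expanded cells minus that of singletons was 7.5 percentage points in KO mouse 2, far above the other 5 KO mice, which lay between -5.51 and -1.45 points. The 19 cells of 1 clone made up this value. In WT mice the same difference was -3.12 points in WT mouse 6, below the other 5, which lay between -1.98 and -1.61 points. Ccl3 was 83.0 CPM higher in expanded cells than in singletons of KO mouse 4, with 91.4 and 8.42 CPM, the highest difference of the KO mice. Ece1, which encodes an endothelin-converting protease, was 129 CPM higher in expanded cells of KO mouse 6, with 151 and 22.2 CPM, and 106 CPM higher in those of WT mouse 4, with 136 and 29.8 CPM. Both stood far above the other mice of their genotype. In all, 54 groups of 6 mice were examined for such a mouse, and chance gives about 1 in 20.

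The 2 results that follow differed between the genotypes by a test of the difference itself. The recirculating shift differed by 14.4 points (KO minus WT) and the cytotoxic shift by -15.9 points. The values of each mouse stand with the comparisons above.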

How the results depend on the processing

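Counts of called genes moved by more than 1.5 times under these alternatives. Over all cells, where 784 genes passed, DESeq2's test called 424, the fit without the mouse as replicate block 320 (160 higher and 160 lower), at most 10 cells per clone 507, clusters weighted alike 505, KO mice alone 218 and WT mice alone 483. Within recirculating cells, where 188 passed, DESeq2 called 109, no replicate block 57, at most 10 cells per clone 72 and the loss of each mouse's largest clone 120. Within cytotoxic cells, where 98 passed, 10 cells per side gave 60, no filter on low counts 202, no replicate block 51 and at most 10 cells per clone 53. Within unnamed 1, where 159 passed, DESeq2 gave 93, no replicate block 60 and at most 10 cells per clone 77. Within Th17 cells, where 12 passed, 10 cells per side gave 39, no filter 88, DESeq2 7, no replicate block 1 and at most 10 cells per clone 0. Within unnamed 3, where 22 passed, 10 cells per side gave 36, no filter 50, no replicate block 1, at most 10 cells per clone 0 and the loss of each largest clone 14. For the genotype interaction, where 1 passed, no filter gave 8, clusters weighted alike 6, clones joined by beta chain 2 and at most 10 cells per clone 0 (edgeR; 483 at an unadjusted p under 0.05).

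Leaving out 1 mouse gave 119 to 226 calls in recirculating cells (119 without WT mouse 4, 121 without KO mouse 6), 65 to 94 in cytotoxic cells (65 without WT mouse 2), 82 to 151 in unnamed 1 (82, 93 and 101 without KO mouse 3, 4 and 6), 1 to 37 in Th17 cells (37, 2, 1 and 3 without WT mouse 1, 2, 3 and 4), 3 to 31 in unnamed 3 (8 and 3 without KO mouse 1 and 5, 8 and 6 without WT mouse 5 and 6) and 1 to 4 for the interaction (2 to 4 without KO mouse 2, 3, 5 or 6 or WT mouse 1, 4 or 6). Over all cells no such count moved by more than 1.5 times.

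For shares, tested by exact permutation, the expanded share by cluster ranged over the mice left out from 6.07 to 10.2 points for cytotoxic cells, now passing without KO mouse 2 or 6, and from -4.67 to -3.13 for unnamed 1, no longer passing without KO mouse 1 or WT mouse 2, 5 or 6. The regulatory cluster share ranged from -2.88 to -1.70. The difference of KO from WT mice ranged from -8.77 to -5.90 in the number of expanded clones, from 6.92 to 9.44 points in the singleton share and from -14.4 to -7.85 points in the expanded share, which passed without KO mouse 4 or WT mouse 6.

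Other share settings that changed a call were these. For the cytotoxic cluster the expanded share differed by 9.39 points (adjusted p = 0.0399) from 5 cells up and by 10.4 (0.0273) without each largest clone. For unnamed 1 it differed by -0.216 (0.861) with at most 10 cells per clone and by -2.62 (0.103) without each largest clone, and its cluster share by -1.57 (0.249) with at most 10 cells per clone and -1.93 (0.0978) with clones joined by beta chain. The regulatory cluster share differed by -2.82 (0.00171) from 20 cells up and by -2.61 (0.0424) against singletons with unshared chains. In KO mice alone, where 6 mice allow no p below 0.0312 before adjustment, the expanded share differed by -4.56 for recirculating, 8.47 for cycling and -4.47 for unnamed 1 cells, and the cluster share by -3.15, 3.76 and -5.42 for the same clusters and 2.22 for cytotoxic cells, none passing. In WT mice alone the expanded share differed by -15.0, 8.07 and -3.77 for those 3 clusters, not passing, and the cluster share by -1.97 for regulatory and -3.87 for unnamed 3 cells, now passing. Between genotypes, the expanded share differed by -11.9 (0.0491) from 5 cells up and -14.5 (0.0462) by deposited clone sizes. The singleton share differed by 7.92 (0.0693) from 20 cells up, 6.43 (0.0649) in cells with both chains and 5.80 (0.0548) with clones joined by beta chain, and the number of expanded clones by -2.50 (0.299) and -6.50 (0.0649) under the first 2 of these. The cytotoxic shift differed by -13.3 (0.0682) from 5 cells up, -13.6 from 20 cells up, -13.5 with at most 10 cells per clone and -0.862 on the log2 odds scale. The doublet score differed by 0.00421 (0.0137) with at most 10 cells per clone. Of 4402 settings of genes chosen by the naming rule, 3814 kept direction and call, 567 lost the call, 20 gained it and 1 turned in sign (Birc5, -0.17). The causes of these changes were not tested. Cell number limited the clusters, so cycling and regulatory cells could not be fitted. Il17f, Foxp3 and Il10 had too few UMIs to be tested.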
